A study of Mus musculus with 14 samples.

Results

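Day 4 of differentiation was compared with the undifferentiated state in cultured mouse neural stem cells (NSC), using 6 of the 14 RNA-seq libraries of the series. The members are the libraries that the labels place at passage 8 and either undifferentiated or at day 4. Each stage had 3 libraries, 1 per treatment: NC (the label of the control), Naloxone (an antagonist of opioid receptors) and Damgo (a synthetic enkephalin analog that activates mu opioid receptors). All cells were of the OG2 strain, a mouse line with a Pou5f1 reporter transgene, so stage was the only labelled difference within each treatment. The series also holds 3 libraries each at day 2 and day 8 and 2 libraries of NSC with no named treatment, and it asks how opioid ligands act on NSC. How differentiation was started, and whether the libraries came from separate cultures, is not given in the sources used here, so p-values measure the spread between these libraries, which may be technical.

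Neural stem cells divide under growth factors and can give rise to neurons, astrocytes and oligodendrocytes. Young neurons switch on cytoskeletal and RNA-binding proteins such as doublecortin (Dcx) and class III beta-tubulin (Tubb3). Oligodendrocyte precursors (OPC) carry the PDGF alpha receptor and the transcription factor Sox10, pass through a committed state marked by Gpr17, Bcas1 and Enpp6, and then make the myelin proteins. Astrocytes build glutamate transporters, gap junctions, water channels and the intermediate filament Gfap. Dcx, Sox4 and Sox11 are also known from OPC, and Slc1a3, Fabp7 and Sox9 from both NSC and astrocytes, so none of them marks a single cell type by itself.

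Depth ranged from 4143017 to 5771543 estimated counts per library. Levels are given as CPM, counts scaled to a common library total with TMM, a correction for differences in RNA composition. A gene with 3 counts had 0.497 to 0.694 CPM. Libraries of 1 stage were alike, with a lowest Pearson r of log2 CPM across genes of 0.992 among undifferentiated and 0.991 among day 4 libraries. Differences between treatments followed GC content little in these libraries, with r across genes from -0.05 to -0.01 at day 4 and from -0.08 to 0.17 in undifferentiated cells, against up to 0.57 at day 2 and 0.51 at day 8. Of the 14 genes listed as markers of pluripotent cells, 9 had no count in the 6 libraries, Pou5f1 among them. Values below are means ± SD over the 3 libraries of a stage, and changes are log2 fold changes ± SE of day 4 over undifferentiated cells from edgeR's quasi-likelihood test with the treatment as a block.

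By day 4 most genes had changed. Of 12535 genes tested, 9468 passed an adjusted p (Benjamini-Hochberg) of 0.05, which is 75.5%. The 4584 genes that rose were 36.6% and the 4884 that fell were 39.0%, and of these 1861 rose and 1683 fell at least 2-fold. The shares of 36.6% and 39.0% are the background for each list count of day 4 against undifferentiated cells below. With TPM (a share of transcripts that also divides by gene length) in place of scaled counts, limma called 5113 genes higher and 3406 lower, and the median change of all genes was 0.15 in place of -0.02. The groups did not overlap for 9736 genes, so separation of the stages alone sets no gene apart from the rest here. In bulk RNA fewer cells of a type and less RNA per cell cannot be told apart.

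Genes of dividing cells fell together. All 34 tested genes of the G2 and M phase list and all 35 of the S phase list fell, with median changes of -5.35 and -3.43 against -0.02 over all genes tested. Mki67, a protein coating mitotic chromosomes, stood at 1365, 1277 and 1300 CPM in the undifferentiated NC, Naloxone and Damgo libraries and at 10.3, 12.5 and 5.32 CPM at day 4. Top2a, the topoisomerase that untangles replicated DNA, went from 1038 ± 38.6 to 25.6 ± 2.04 CPM. No undifferentiated library came near a day 4 library for either gene. In the S phase list Uhrf1, which carries DNA methylation through replication, fell by 4.96 ± 0.08 on the log2 scale, and Mcm10, a factor of origin firing, by 5.72 ± 0.15. Cdc20, the activator of the anaphase-promoting complex, fell by 5.47 ± 0.10.

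Promoters of the G2 and M phase genes often hold a CHR element, bound by the DREAM and MuvB complexes, near CCAAT boxes, bound by NF-Y. The RefSeq promoter table (GRCm38.p6, 250 bases before to 50 after the start) gave a promoter for 28 of the 34 genes of this list, and 20 of these (71.4%) held the letters TTTGAA on either strand, against 18.1% of the 27025 genes in the table. CCAAT on either strand stood in 75.0% against 37.9%, and both motifs in 60.7% against 7.12%. TTTGAA stood in 2 of 23 promoters of the young neuron list, 1 of 20 of the OPC list and 2 of 35 of the astrocyte list. The E-box CAGCTG, which reads the same on both strands, stood in 6, 4 and 6 of these promoters, and in 16.1% of all genes. These are matches of letters, counted as a description. To let the spacing be seen, 2 members of the list with large falls are shown as examples. They were picked among members whose 250 bases before the start hold both motifs, so the motifs in them are no result. Members with larger falls than Cdc20, such as Cenpe (-6.78 ± 0.12) and Sgo1 (-6.48 ± 0.21), are not shown. They are printed 5′ to 3′ on the gene's strand, with TTTGAA and CCAAT on either strand in capitals. The first lies at chr7:135716380-135716629 and the second at chr4:118437344-118437593 of GRCm38.p6, both on the minus strand.
Mki67: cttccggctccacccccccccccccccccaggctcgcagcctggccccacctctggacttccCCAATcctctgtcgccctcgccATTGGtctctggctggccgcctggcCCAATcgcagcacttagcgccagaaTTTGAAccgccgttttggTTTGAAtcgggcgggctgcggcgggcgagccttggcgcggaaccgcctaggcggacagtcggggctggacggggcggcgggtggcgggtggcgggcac
Cdc20: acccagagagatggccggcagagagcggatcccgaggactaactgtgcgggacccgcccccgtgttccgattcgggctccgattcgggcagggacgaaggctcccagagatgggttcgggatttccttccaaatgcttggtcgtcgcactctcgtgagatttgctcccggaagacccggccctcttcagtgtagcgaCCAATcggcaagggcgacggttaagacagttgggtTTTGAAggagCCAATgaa
In the Mki67 promoter 3 CCAAT boxes stand ahead of 2 CHR elements, and in that of Cdc20 the single CHR element lies between 2 CCAAT boxes.

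The cyclins and signalling genes of the growth state fell with them. Ccnd1, the cyclin through which growth factors start the cell cycle, went from 2406 ± 25.5 to 39.7 ± 4.90 CPM and Ccnd2 from 1218 ± 42.3 to 68.2 ± 6.52 CPM. In the list of D cyclins and CDK inhibitors 11 of 16 genes fell and 4 rose, beside 39.0% of all tested genes lower and 36.6% higher. Among the inhibitors Cdkn1a fell by 4.04 ± 0.08, while Cdkn1c and Cdkn2b rose by 1.81 ± 0.19 and 1.82 ± 0.15. The retinoblastoma gene Rb1 rose by 0.72 ± 0.06, and Rbl1 of the same list fell by 2.66 ± 0.10. All 25 tested genes of the list of immediate early genes and feedback inhibitors of ERK signalling fell (23 by limma on TPM), with a median of -2.65. Dusp6, the phosphatase of ERK, stood at 318, 325 and 297 CPM in undifferentiated and 5.47, 4.24 and 6.01 CPM in day 4 libraries. Spry4, another inhibitor of growth factor signalling, went from 272 ± 7.21 to 4.07 ± 0.228 CPM.

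In the list of stem and progenitor cells 12 of 23 tested genes rose and 9 fell, with a median of 0.52, beside 36.6% of all tested genes higher and 39.0% lower, so the share that fell was that of all genes. Nes, the intermediate filament nestin, fell from 1807 ± 77.6 to 185 ± 7.23 CPM, Tnc, the matrix protein tenascin C, from 1651 ± 31.7 to 189 ± 13.2 CPM, and the chromatin protein gene Hmga2 by 6.33 ± 0.30. The transcription factor genes Sox2 and Sox1 rose by 0.68 ± 0.05 and 1.41 ± 0.07, Nr2e1 by 1.57 ± 0.08, and the RNA-binding protein gene Msi1 by 1.77 ± 0.07. Of the genes known from quiescent stem cells, 12 of 20 rose and 6 fell (2 by limma on TPM, 3 by DESeq2 or the 12-library fit). Among those that fell were Klf9, from 28.8 ± 2.84 to 7.46 ± 0.566 CPM, and Id3, by 2.03 ± 0.09. Prdm16 stood at 0.609, 0.173 and 0.176 CPM in undifferentiated cells and at 74.5, 73.7 and 73.8 CPM at day 4, and Vcam1, an adhesion molecule, went from 9.03 ± 2.39 to 304 ± 1.65 CPM.

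**Figure D1:**
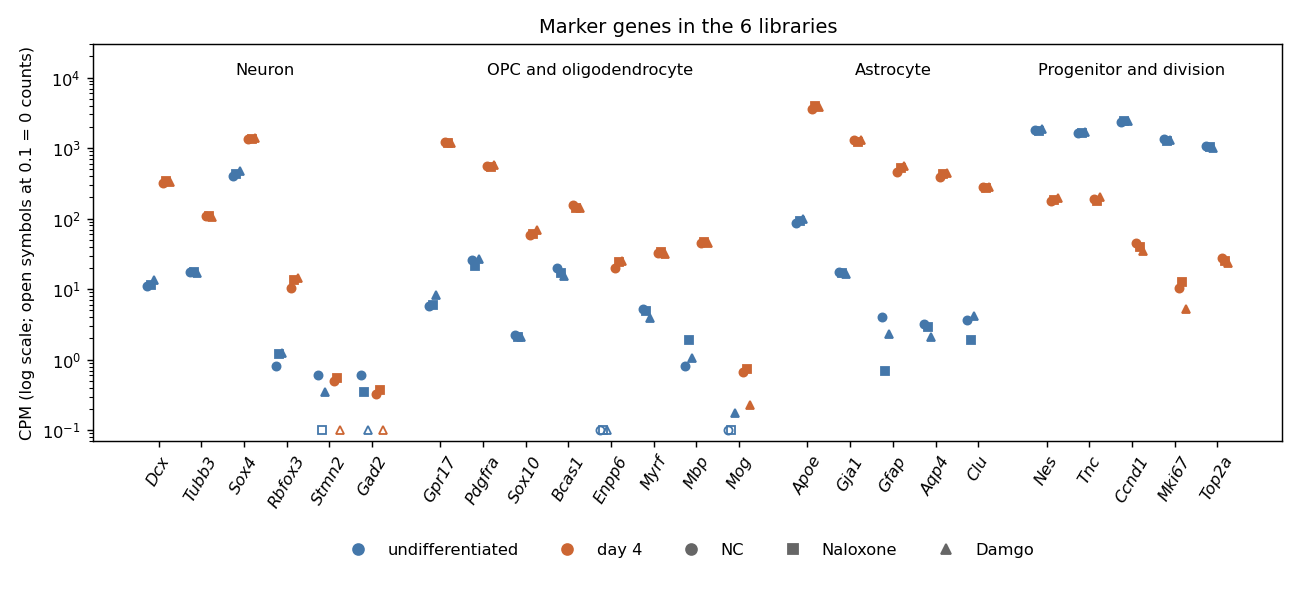
CPM on a log scale of 24 marker genes in the 3 undifferentiated (blue) and 3 day 4 (orange) libraries, with symbols for the treatments and open symbols drawn at 0.1 for 0 counts. Dcx, Gpr17 and Gfap sit higher in every day 4 library than in any undifferentiated one, Mki67 and Ccnd1 lower, while Stmn2 and Gad2 stay near 3 counts or fewer in all 6.

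Among genes of young neurons 24 of the 32 tested rose and 6 fell, with a median of 0.80, and 4 more listed genes (Stmn2, Nhlh2, St18, Islr2) did not pass the filter on low counts. Dcx, the microtubule-binding protein of migrating neuroblasts (ENSMUSG00000031285, X:143855842-143933311 in GRCm38), stood at 11.2, 11.6 and 13.4 CPM in undifferentiated and at 323, 347 and 335 CPM in day 4 libraries. Its change was 4.79 ± 0.08 (adjusted p = 2.12e-21), and the lowest day 4 library was far above the highest undifferentiated one. Tubb3 rose from 17.3 ± 0.313 to 108 ± 2.04 CPM, and Nsg2, a protein of neuronal endosomes, from 35.7 ± 0.948 to 188 ± 5.29 CPM. Sox4, a transcription factor of newborn neurons and other immature cells, went from 436 ± 33.9 to 1366 ± 27.9 CPM. Smaller rises were seen for Elavl3, which binds neuronal mRNAs (1.32 ± 0.08), and for Dpysl3 and Dpysl5, which steer growth cones (1.56 ± 0.04 and 1.84 ± 0.07). The growth cone gene Rnd3, a small GTPase, rose by 1.87 ± 0.07.

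Several genes of the same list moved the other way. Gap43, the growth cone phosphoprotein, stood at 296, 297 and 288 CPM in undifferentiated cells and at 41.4, 36.3 and 40.5 CPM at day 4. Sox11, often active beside Sox4, fell by 0.93 ± 0.05, the tubulin-binding Stmn1 by 0.96 ± 0.06, Stmn4 by 0.75 ± 0.14, Elavl4 by 0.63 ± 0.07 and Stmn3 by 0.35 ± 0.07. For Elavl4 the 12-library fit gave the same direction with an adjusted p of 0.0675. Stmn2, a stathmin of growing axons, had 0.609, 0 and 0.352 CPM in undifferentiated and 0.497, 0.553 and 0 CPM in day 4 libraries, which is at or under 3 counts in each library. The summed level of the whole list went from between 4776 and 4918 TPM to between 6638 and 6698 TPM.

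Genes of neuronal subtypes were mostly too low to test. Of the 20 GABAergic genes 6 were tested and 5 rose, led by the transcription factor genes Sp9 (1.92 ± 0.36) and Dlx1 (1.76 ± 0.37), which reached only 4.83 ± 2.09 and 3.82 ± 0.953 CPM. Sp9 and Dlx1 entered the test through day 4 alone, so the count of 5 is no evidence that the list rose. Gad1, which makes GABA, rose by 0.42 ± 0.12 to 22.8 ± 2.0 CPM, a call that the 12-library fit, DESeq2 and limma on TPM did not make. Its partner Gad2 stood at 0.331, 0.368 and 0 CPM at day 4. Of the 12 glutamatergic genes 3 were tested and 2 rose, of which Neurog2 entered the test through day 4 alone. Neurog2, a proneural factor, went from 0.996 ± 0.448 to 14.8 ± 0.828 CPM and Neurod1 from 3.54 ± 0.506 to 8.23 ± 1.74 CPM, while the vesicular glutamate transporter genes Slc17a6 and Slc17a7 stood at 0.553 and 0.123 CPM. Nhlh1, a transcription factor of newborn neurons, had 1 count in all undifferentiated and 116 in all day 4 libraries, a CPM ratio of 120 (95% counting interval 21.2 to 4793, counting error only).

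The list of mature neuron and synapse genes had 19 of 27 tested genes higher and 6 lower, with a median of 0.61. Rbfox3, the nuclear antigen NeuN, rose from 1.09 ± 0.237 to 12.8 ± 2.08 CPM, Gria1, a subunit of AMPA receptors, by 3.77 ± 0.25, and Bsn, a scaffold of the presynaptic zone, by 2.11 ± 0.12. Syt1, the calcium sensor of synaptic vesicles, rose by 1.31 ± 0.09. Gria2, the AMPA receptor subunit that limits calcium entry, fell from 825, 782 and 774 CPM to 301, 442 and 293 CPM, with the Naloxone library highest at day 4. Snap25, a core part of the vesicle fusion machinery, stood at 7.74 ± 1.92 and then 4.34 ± 0.332 CPM, a change of -0.83 ± 0.24. That change was -0.55 and not past the threshold without the undifferentiated NC library (adjusted p = 0.103) or without the day 4 NC library (adjusted p = 0.0939), and DESeq2 and limma on TPM did not call it.

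In the oligodendrocyte lineage genes of precursors, of committed precursors and of new oligodendrocytes rose. In the OPC list 19 of 28 tested genes rose and 8 fell (4 by limma on TPM), with a median of 0.86, and its summed level went from between 4497 and 4694 TPM to between 6326 and 6463 TPM. Gpr17, a receptor of committed precursors (ENSMUSG00000052229, 18:31942997-31949636), stood at 5.68, 5.89 and 8.27 CPM in undifferentiated and 1214, 1172 and 1179 CPM in day 4 libraries. Pdgfra, the receptor through which PDGF drives OPC division (ENSMUSG00000029231, 5:75152292-75198215), stood at 26.0, 21.7 and 26.6 and then 553, 540 and 581 CPM. Sox10, which drives the myelin programme, went from 2.14 ± 0.0806 to 63.0 ± 4.96 CPM. The day 4 libraries lay far above the undifferentiated ones for each of the 3 genes.

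Matrix and surface genes of OPC followed. Tnr, the matrix protein tenascin R, rose from 86.2 ± 6.11 to 795 ± 60.4 CPM, C1ql1 from 0.719 ± 0.448 to 61.5 ± 1.11 CPM, and the versican gene Vcan by 1.06 ± 0.07. Neu4, a sialidase, had no count in undifferentiated cells and 9.37 ± 2.0 CPM at day 4, at least 51.9-fold higher, taking 3 counts in the 3 libraries together as the limit that 0 allows. The transcription factor gene Sox6, which holds OPC immature, rose by 1.53 ± 0.05. Cspg4, the proteoglycan NG2 of proliferating OPC, fell from 170, 197 and 196 CPM to 51.2, 50.5 and 53.2 CPM. Olig1 and Olig2, the lineage's basic helix-loop-helix factors, were already at 1736 ± 77.9 and 805 ± 6.48 CPM in undifferentiated cells and changed by -0.20 ± 0.03 and -0.30 ± 0.04, calls that limma on TPM did not make. Xylt1, which starts proteoglycan chains, and Epn2, an endocytic adaptor, fell by 1.53 ± 0.07 and 1.5 ± 0.05.

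Genes of newly formed and myelinating oligodendrocytes rose in part. In the newly formed list 9 of 14 tested genes rose and 3 fell (median 1.14), and in the myelinating list 9 of 13 rose and 3 fell (median 1.58). Some members entered these counts through 1 stage alone, such as Enpp6 and Fa2h through day 4 and Trf through undifferentiated cells. The newly formed genes that fell were Zfp365 (-1.16 ± 0.07), Fyn (-0.48 ± 0.04) and Itpr2 (-0.35 ± 0.07). Those of the myelinating list were Trf, Tspan2 (-2.05 ± 0.25) and Car2, which went from 134 ± 15.2 to 36.1 ± 3.18 CPM. Trf had 74 counts in all undifferentiated and 3 in all day 4 libraries. Enpp6, a choline phosphodiesterase and an early mark of new oligodendrocytes (ENSMUSG00000038173, 8:46986887-47096762), had no count in undifferentiated cells and 19.7, 24.1 and 25.4 CPM at day 4, at least 124-fold higher. Bcas1, a cytoplasmic protein of early myelinating cells, went from 17.6 ± 2.33 to 146 ± 7.68 CPM. Myrf, the transcription factor that switches on myelin genes, went from 4.67 ± 0.721 to 32.5 ± 0.958 CPM. Mbp, myelin basic protein, stood at 0.812, 1.91 and 1.06 CPM before differentiation and at 44.6, 46.6 and 44.6 CPM in the day 4 libraries, all above the undifferentiated ones.

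Other myelin genes were lower. Mag, an adhesion protein of the inner myelin face, reached 2.54 ± 0.548 CPM, and Mog, of the outer face, stood at 0.663, 0.737 and 0.231 CPM at day 4. Of the 24 genes in the myelinating list 11 did not pass the filter, Mog, Mobp, Opalin and Mal among them. Fa2h, which makes the hydroxylated lipids of myelin, had 2 counts in all undifferentiated and 143 in all day 4 libraries, a ratio of 74.2 (95% counting interval 20.2 to 618). Per length, Mbp at 57.6 TPM stood below Gpr17 at 516 TPM and Pdgfra at 190 TPM at day 4.

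Astrocyte genes rose nearly throughout their list. Of 40 tested genes 36 rose and 3 fell, with a median of 2.22, and the summed level of the list went from between 3059 and 3186 TPM to between 32353 and 33681 TPM. Gfap (ENSMUSG00000020932, 11:102887336-102900912) stood at 4.06, 0.693 and 2.29 CPM in undifferentiated and 461, 519 and 550 CPM in day 4 libraries. Aqp4, the water channel of astrocyte endfeet, stood at 3.25, 2.95 and 2.11 and then 393, 426 and 446 CPM. Gja1, the gap junction protein connexin 43, went from 17.0 ± 0.747 to 1279 ± 42.3 CPM, and Apoe, the lipid carrier, from 93.5 ± 5.58 to 3805 ± 231 CPM. For these 4 genes every day 4 library lay above every undifferentiated one.

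Enzymes and transporters of astrocytes rose from a level that undifferentiated cells already had. Slc1a3, a glutamate transporter also present in radial glia, went from 917 ± 11.3 to 2773 ± 50.9 CPM, and Slc1a2, the main glutamate transporter of mature astrocytes, from 159 ± 7.77 to 573 ± 5.29 CPM. Glul, which turns glutamate into glutamine, rose by 2.95 ± 0.05, Aldoc, a glycolytic aldolase, by 3.22 ± 0.06, and Aldh1l1, a folate enzyme, by 1.47 ± 0.08. The 3 genes that fell were Timp4, an inhibitor of metalloproteinases (-2.61 ± 0.12), Acsbg1, an acyl-CoA synthetase (-1.14 ± 0.05), and the transcription factor gene Nfib (-0.17 ± 0.05), whose call DESeq2, limma on TPM and the 12-library fit did not make.

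**Figure D2:**
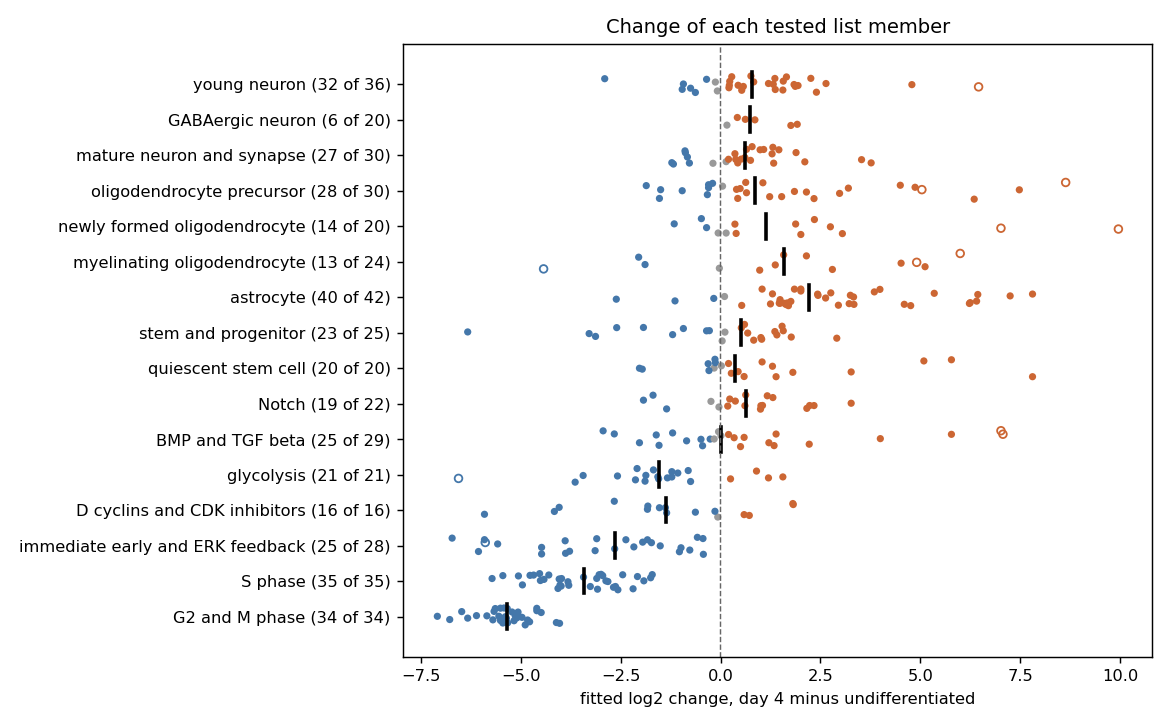
Fitted log2 change (day 4 minus undifferentiated) of each tested member of 16 gene lists, with the number tested of the number listed. Orange and blue points passed the test, grey did not, open points have 0 to 3 counts in 1 stage so that their fitted value depends on the prior count, bars are list medians and the dashed line is the median of all genes (-0.02). The medians run from -5.35 for G2 and M phase to 2.22 for astrocyte genes.

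The mix was set against markers of other cells. Of 16 genes of microglia and macrophages 15 did not pass the filter and 7 had no count in the 6 libraries (Aif1, Cx3cr1, C1qa and Trem2 among them). The 15 genes together summed to between 2.98 and 7.28 TPM in undifferentiated and between 2.41 and 3.66 TPM in day 4 libraries. Of 15 endothelial genes 4 were tested and 2 fell (1 by DESeq2), and Cdh5, Cldn5, Ly6c1 and Tie1 had no count. The neural crest and Schwann cell list shares Sox10 with the OPC list and Gap43 with the young neuron list. It had 3 of 8 tested genes higher and 4 lower, beside 36.6% and 39.0% of all tested genes. The list summed to between 517 and 539 TPM in undifferentiated and between 139 and 163 TPM in day 4 libraries. Gap43, a growth cone protein, made up most of the first sum, with a mean of 451 TPM in undifferentiated and 68.7 TPM in day 4 libraries. Of 15 ependymal genes 3 were tested, of which 2 rose and 1 fell. Foxj1, which starts ciliogenesis, rose from 5.64 ± 0.680 to 46.2 ± 3.57 CPM, and Hydin, a protein of motile cilia, fell from 13.1 ± 1.77 to 0.640 ± 0.555 CPM.

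In the list of pericyte and fibroblast genes Pdgfrb, the PDGF beta receptor, stood at 0.406, 0.693 and 0 CPM in undifferentiated and at 103, 102 and 102 CPM in day 4 libraries. Of the 17 genes of that list 4 were tested, of which 2 rose, 1 fell and 1, Acta2, was not called. With the dependence on GC content and length taken out 3 rose, and with no filter on low counts 4 rose. Of the other 16 genes Anpep had no count, and Rgs5, Kcnj8, Dcn, Lum and Postn stood at 0.439 CPM or less at day 4. All genes under the filter together summed to between 2.28 and 7.18 TPM in undifferentiated and between 3.92 and 11.7 TPM in day 4 libraries. The summed level of 254 to 266 TPM at day 4, against 51.9 to 69.8 TPM before, holds Pdgfra and Cspg4, which are shared with OPC. The part of other cells in the lineage lists was not tested.

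**Figure D3:**
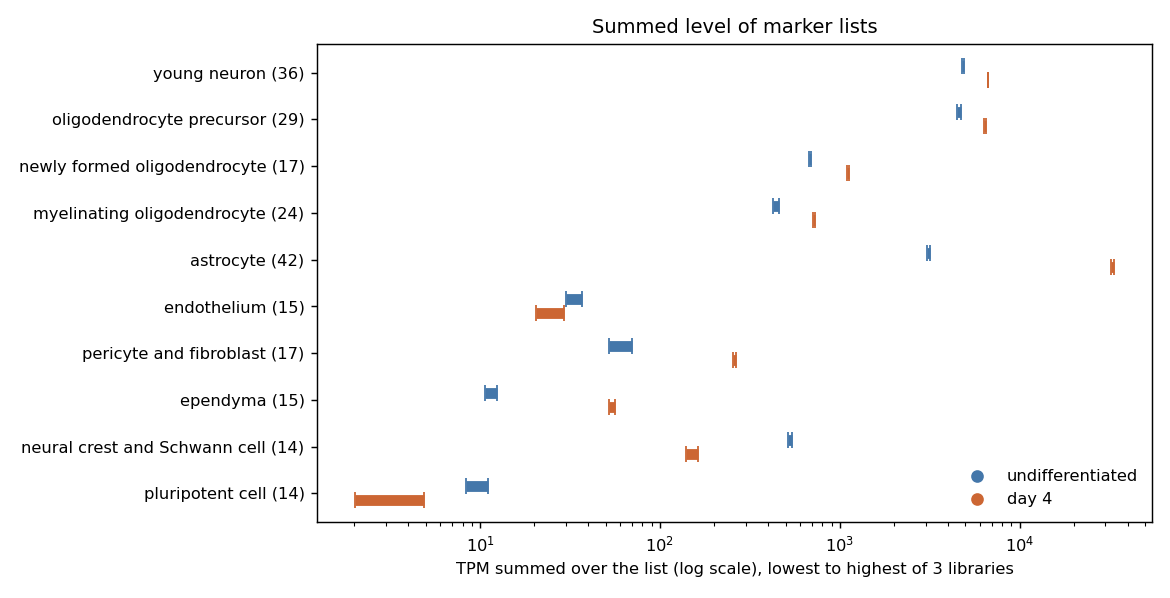
Summed TPM of 10 marker lists on a log scale, from the lowest to the highest of the 3 libraries of each stage, with the number of genes found in the files. The astrocyte list moved from 3059 to 3186 up to 32353 to 33681 TPM, and the endothelium list from 29.9 to 37.1 down to 20.4 to 29.1 TPM.

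Day 4 was placed between day 2 and day 8 with the 12-library fit, in which 13144 genes were tested. Against day 2, 27.1% of genes were higher and 24.8% lower at day 4, and from day 4 to day 8, 37.1% rose and 31.5% fell. Of the 12535 genes tested in both fits 2261 (18.04%) were higher at day 4 than at both day 2 and day 8, and 1749 (13.95%) were lower than at both. In the OPC list 10 of 28 genes were higher at day 4 than at both, and 11 of 32 in the young neuron list, 4 of 14 in the newly formed and 4 of 13 in the myelinating oligodendrocyte list, but 5 of 40 in the astrocyte list and 0 of 34 in the G2 and M phase list. With the dependence on GC content and length taken out, which matters for the day 2 and day 8 libraries, the counts were 11, 13, 6, 5, 10 and 0 beside 15.37% of all genes. These comparisons share the day 4 libraries, and the astrocyte count moved 2-fold with that setting.

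Dcx and several genes of the oligodendrocyte lineage had their highest level at day 4. Dcx stood at 75.2, 33.4 and 37.6 CPM at day 2 and at 94.2, 57.2 and 89.9 CPM at day 8, below each day 4 library. It was higher at day 4 than at day 2 by 2.84 ± 0.24 and fell by 2.10 ± 0.23 to day 8. Tubb3, by contrast, had means of 103, 108 and 107 CPM at day 2, day 4 and day 8, and Sox4 of 1336, 1366 and 446 CPM. Gpr17 rose by 0.96 ± 0.10 from day 2 and fell by 1.30 ± 0.10 to day 8, and Pdgfra rose by 0.79 ± 0.07 and fell by 0.93 ± 0.07.

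Genes of later oligodendrocytes rose in part between day 2 and day 4. In the newly formed list 6 of 14 genes were higher at day 4 than at day 2 and 5 lower. In the myelinating list 9 of 13 were higher and 3 lower, beside 27.1% and 24.8% of all genes tested. Among those that fell were Kif19a (-1.91 ± 0.24) and Car2 (-1.48 ± 0.13). Enpp6 had 0, 0.126 and 0 CPM at day 2 and 4.69, 4.14 and 4.5 CPM at day 8. Myrf rose by 2.38 ± 0.19 from day 2 to day 4 and then fell by 0.89 ± 0.17 to day 8. Bcas1 rose by 2.03 ± 0.09 and fell by 0.45 ± 0.08, and Sox10 rose by 1.13 ± 0.11 and fell by 0.78 ± 0.11. Mbp had means of 2.22 CPM at day 2, 45.3 at day 4 and 56.9 at day 8. Cnp, an early enzyme of the lineage, had its highest mean at day 2, with 575 CPM against 251 at day 4.

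Of the 40 astrocyte genes 23 rose further from day 4 to day 8 and 11 fell, beside 37.1% and 31.5% of all genes tested. Gfap rose by 6.01 ± 0.22 from day 2 to day 4 and by a further 4.11 ± 0.18 to day 8, from 510 ± 45.4 to 8793 CPM. Clu, the secreted chaperone clusterin, rose by 2.42 ± 0.13 and then by 3.78 ± 0.13. Other genes of the list had their day 8 mean below that of day 4, such as Slc1a2 at 573 and then 184 CPM, Plpp3, a lipid phosphatase, at 1211 and 758 CPM, and Kcnj10, the potassium channel Kir4.1, at 155 and 81.8 CPM.

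**Figure D4:**
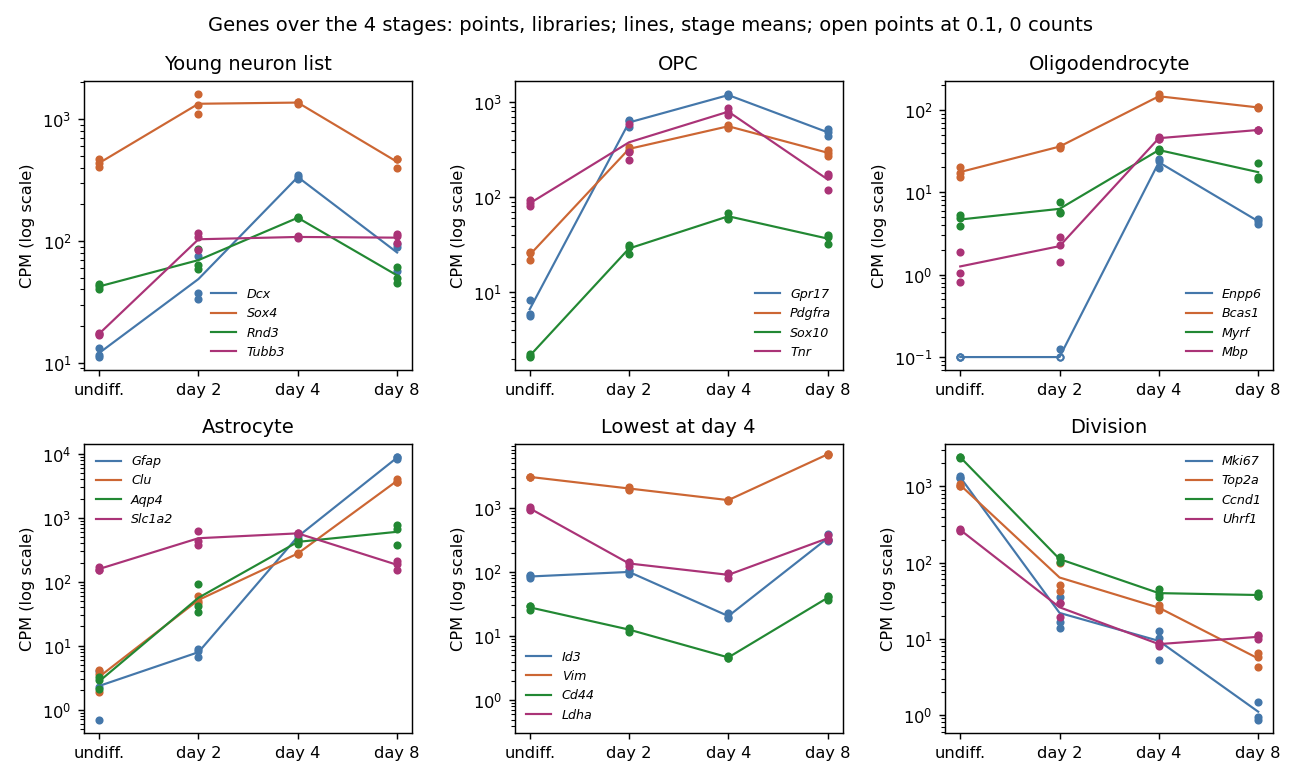
CPM on log scales over the 4 stages for 24 genes, with points for libraries, lines through stage means and open points at 0.1 for 0 counts. Dcx, Gpr17, Enpp6 and Myrf are highest at day 4, Gfap and Clu climb on to day 8, and Id3, Vim and Cd44 are lowest at day 4.

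Of 19 tested Notch genes 14 rose and 3 fell from undifferentiated cells to day 4, beside 36.6% of all tested genes higher and 39.0% lower. Against day 2, however, 2 of the 19 were higher at day 4 and 13 lower, beside 27.1% and 24.8% of all genes. The changes that follow are against undifferentiated cells. The receptor genes Notch1, Notch2 and Notch3 rose by 1.00 ± 0.04, 2.23 ± 0.06 and 2.16 ± 0.07, and the target Hes5 stood at 15.2, 17.9 and 22.5 CPM and then 171, 191 and 176 CPM. The ligand gene Dll1 rose by 1.31 ± 0.06, the ligand gene Jag1 fell by 1.69 ± 0.11, and the target Hes1 fell from 34.9 ± 0.439 to 9.23 ± 1.76 CPM. Of 25 tested genes of BMP and TGF beta signalling 12 rose and 10 fell (6 by DESeq2), with a median of 0.01, near that of all genes. Bmp4 and Bmp6 had no count in undifferentiated cells and 3.05 ± 0.888 and 3.14 ± 0.455 CPM at day 4, at least 16.6-fold and 17.3-fold higher, while Bmp7 fell by 2.66 ± 0.08. Nog, which binds and blocks BMPs, went from 0.670 ± 0.187 to 11.1 ± 2.08 CPM.

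The Id genes, targets of BMP signalling that block proneural factors, differed from each other. Id4 rose from 1.75 ± 0.535 to 98.4 ± 4.34 CPM and Id2 by 1.39 ± 0.09. Id3 stood at 79.8, 84.9 and 89.2 CPM in undifferentiated and 22.5, 19.9 and 19.0 CPM in day 4 libraries. Id1 stood at 6.57 ± 0.920 and 5.86 ± 0.279 CPM, a change of -0.16 ± 0.22 (adjusted p = 0.504) whose sign turned with limma on TPM.

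The genes with the largest changes overall joined those of the lists. Among the 10 largest rises, Gpr149, an orphan receptor, had no count in undifferentiated cells and 42.6, 50.5 and 44.9 CPM at day 4, at least 251-fold higher. Entpd2, an ectonucleotidase of neural progenitors and glia, was at least 172-fold higher, the lipase inhibitor gene Angptl4 at least 115-fold and Lgi4, a secreted ligand in glial cells, at least 111-fold. Slc24a4, a potassium-dependent sodium-calcium exchanger, was at least 97.5-fold higher and the kinase gene Map3k19 at least 58.4-fold. Abhd3, a phospholipase, went from 0.310 ± 0.122 to 109 ± 4.13 CPM. The ratio was 374 for Cntnap2, a neurexin-family adhesion molecule (1 count against 361, interval 66.8 to 14832), and 366 for the retinal reductase gene Dhrs3 (1 against 353, interval 65.3 to 14504).

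Among the 10 largest falls were the kinetochore genes Knl1 and Cenpe, the mitotic regulator Pimreg, and Mki67. Angpt2, a ligand of the endothelial Tie2 receptor, stood at 141, 143 and 132 CPM and then 0.663, 1.47 and 1.85 CPM. Arc, an immediate early gene of active synapses, went from 42.2 ± 2.04 to 0.394 ± 0.203 CPM. Cpne7, a calcium-dependent membrane-binding protein, had 509 counts in undifferentiated and 1 in day 4 libraries, a ratio of 491 (interval 87.7 to 19418). The ratio was 112 for Filip1, 113 for Adamts14 and 111 for the lactate exporter gene Slc16a3, each with 2 or 3 counts at day 4 (intervals 30.7 to 933, 30.9 to 937 and 37.5 to 539).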

How the data were processed

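Per the labels, total RNA was extracted with Trizol and made into TruSeq libraries. The submitters' processing notes name Bowtie, RSEM and the mm10 build, without versions. Per the file headers, the deposited columns for 29713 genes are expected count, TPM, FPKM and gene lengths, and FPKM was not used. Expected counts (10.4 to 12.2% of genes not whole) were rounded. RSEM divides reads among related genes, so members of gene families are less certain. Symbols and positions came from GENCODE (GRCm38), which held 29202 of the identifiers.

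The 6-library fit used edgeR's quasi-likelihood test with the treatment as a block, TMM factors from the 12 libraries of the drug experiment, the filter on low counts and 2 residual degrees of freedom. A 12-library fit (6 residual degrees of freedom) placed day 4 against day 2 and day 8. P-values were adjusted by Benjamini-Hochberg over all genes tested. The code was tested on simulated data. Deviations of same-treatment libraries from their stage means correlated at -0.03, -0.04 and -0.04, so the block rests on the design. Chi-square per degree of freedom between libraries of a stage was 1.38 to 1.86, so none was a copy.

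Some list members are counted but not reported here by name. Named are the 10 largest rises and falls among genes averaging 5 CPM or more with 1 direction in all treatments (predicted genes left out), up to 10 members past the test per cell type list and 4 per other list, and a fixed set of markers. Further list members were chosen after their values were seen (among them Sox11, Stmn1, Elavl3, Sox6, Timp4, Notch1, Id1, Cdc20 and Kcnj10). The comparison and lists were chosen with earlier results of these data known. A fold against 0 counts takes 3 counts in the 3 libraries together as its floor, and ratios with 1 to 3 counts have exact 95% intervals. Alternatives were no block, 12 libraries, DESeq2 size factors, DESeq2, limma on log2(TPM + 1 or 0.1), no filter, a minimum change of 2-fold, the passage 8 reference library added as NC, each library left out and, added after seeing the data, TMM over the 6 libraries and a fit with the dependence on GC content and length taken out (mgcv). Fits were run with edgeR 4.0.16, DESeq2 1.42.0, mgcv 1.9.3 and limma 3.58.1 in R 4.3.3.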

Additional observations from a re-analysis of the deposited data

How the results depend on the processing

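The 9468 calls of day 4 against undifferentiated cells were 8856 to 8950 with 1 library left out, whose partner of the same treatment then carries no weight (4255 to 4337 higher, 4564 to 4637 lower) and 9558 with no treatment block. The treatment block changed no call of a named gene. A minimum change of 2-fold left 2659 calls, 1388 higher and 1271 lower, with 14 young neuron and 12 OPC genes higher. Under the other alternatives run, the counts over all genes and the counts of the 5 lineage lists that rose stayed within 1.5 times. For single genes, Fabp7, a lipid-binding protein of radial glia, was lower at day 4 (-0.35 ± 0.04) but changed by 0.16 with the trend on GC content and length removed, and Id1 changed by 0.01 with either pseudocount on TPM. The cause was not tested. Day 4 against day 2 gave 4295 calls from the 6 libraries of those stages alone (2137 higher, 2158 lower) against 6824 from 12, and 4962 to 7716 with 1 library left out (2559 to 4097 higher, 2401 to 3619 lower). The fall of Ldha from day 2 was not past the threshold with the trend on GC content and length removed (adjusted p = 0.0831). With 1 library per treatment and stage and 4143017 counts in the shallowest, genes near 3 counts cannot be ranked.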

Other observations

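Vim, Id3 and Cd44, chosen after their values were seen, were lower at day 4 than at each of the other stages. Vim, the intermediate filament vimentin, had means of 3014, 1989, 1311 and 6782 CPM in undifferentiated cells and at day 2, day 4 and day 8, and it fell by 0.60 ± 0.05 from day 2 to day 4 and then rose by 2.37 ± 0.06 to day 8. Id3 had means of 84.6, 99.8, 20.5 and 335 CPM in the same order. Cd44, a hyaluronan receptor, had means of 28.0, 12.6, 4.64 and 39.5 CPM.

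Glycolysis genes fell to day 4 and rose after it. Of 21 genes 17 fell from undifferentiated cells to day 4 and 4 rose, with a median of -1.55, and 10 of the 21 were lower at day 4 than at both day 2 and day 8 against 13.95% of all genes (5 of 21 against 8.66% with the dependence on GC content and length taken out). From day 4 to day 8, 19 of the 21 rose, beside 37.1% of all genes tested. Ldha, which makes lactate, stood at 933, 957 and 1040 CPM in undifferentiated and 96.7, 81.2 and 91.8 CPM in day 4 libraries, and rose by 1.89 ± 0.10 to day 8. Tpi1 fell by 2.58 ± 0.06 and Gapdh by 1.22 ± 0.04. The genes that rose included Ldhb, which favours the use of lactate (1.56 ± 0.05), and Pfkfb3, a regulator of phosphofructokinase (1.2 ± 0.07).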
